A study of Felis catus with 77 samples.

Results

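Skeletal muscle (SM) lying next to feline fibrosarcoma (FSA) was compared between cats whose tumor sat at the shoulder and cats whose tumor sat on the trunk. The members were 17 of the 20 SM libraries in a series of 77, namely 5 from shoulder cases (22, 29, 30, 31 and 32) and 12 from trunk cases. The trunk group joined 3 abdomen cases (5, 18, 33), 3 back cases (7, 19, 23), 4 chest cases (8, 20, 24, 34) and 2 flank cases (6, 10). The SM libraries of cases 11 to 13 were left out, as the rule excludes cases 11 to 17. The site is that of the tumor in the medical records, matched to a library by the case number in its title, and the muscle that was dissected is not named. All tissue was archival formalin-fixed paraffin-embedded (FFPE) material from cats operated on for FSA, isolated by laser-capture microdissection (LCM), so no muscle came from a tumor-free animal. The shoulder cats were 10 to 14 years old (median 12), 4 female and 1 male, with none neutered and all 5 European short hair. The trunk cats were 8 to 17 years old (median 12.5), 8 female and 4 male, with 4 neutered, and comprised 9 European short hair, 2 Maine Coon and 1 Persian mix.

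Skeletal muscle is built from long multinucleated fibers whose transcriptome is dominated by contractile proteins and energy metabolism. Muscles of the shoulder girdle and of the trunk wall serve different movements, and adult muscles are known to differ in their share of slow and fast fibers and in the expression of positional transcription factors such as the HOX genes. The count files name genes by Ensembl identifiers only, and no identifier could be paired with a symbol in the gene reference used. For this reason fiber-type genes, HOX genes and cell type markers were not looked up. Genes are therefore counted, and single genes are given by identifier.

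The 17 libraries held between 1043709 and 19099337 counts. Shoulder libraries ranged from 10094616 to 18141488 counts, with a median of 15340657, and trunk libraries from 1043709 to 19099337, with a median of 12756148. The means differed by less than the spread between libraries (two-sided exact permutation test, adjusted p = 0.401 over 3 library measures). Counts were normalized with TMM (trimmed mean of M values), and the values below are CPM (read counts scaled to a common library total) on that scale unless another is named. A few trunk libraries stood apart from the rest. Case 7 (back) was the shallowest and showed 9744 identifiers, case 18 (abdomen) showed 10981 at 9571552 counts, and cases 19 and 23 (both back) lay apart on later principal components. Calls, detection and the share of variance are also given without some of these libraries.

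The labelled tissue was checked with a list of identifiers taken from cats 11 to 17, none of whose libraries entered the comparison. There, 238 identifiers had a mean log2 CPM at least 3 above that of each of T, AT and CT (tumor, adipose and connective tissue), and they are called the muscle list here. It was drawn after values of the data had been seen. These identifiers took 36.3% to 60.6% of all counts in the 5 shoulder libraries and 47.4% to 68.1% in the 12 trunk libraries, against 0.420% to 1.90% in the T libraries of the same 17 cats. All 238 had a count in each shoulder library, and 236 to 238 in each trunk library. The lowest share among the 17 libraries was that of case 30 (shoulder). The single most abundant identifier, ENSFCAG00000046559, was the same in every library, with 22.4% ± 4.54 of counts in shoulder (SD, n = 5) and 23.8% ± 2.49 in trunk (SD, n = 12), a difference of -1.48 percentage points (two-sided exact permutation test, adjusted p = 0.401). It was -3.24 without case 22 (adjusted p = 0.0659) and -0.08 without case 30.

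The sites differed in how many genes were seen. At an equal depth of 1043709 counts, the total of the shallowest library, shoulder SM showed 12422 ± 420 identifiers (SD, n = 5) and trunk SM 11083 ± 606 (SD, n = 12). The shoulder values were 12020 for case 22, 12647 for case 29, 13045 for case 30, 12153 for case 31 and 12244 for case 32. The trunk values ran from 9744 (case 7) over a median of 11247 to 11731 (case 24). All 5 shoulder libraries lay above all 12 trunk libraries, and the difference of 1340 identifiers had p = 0.000162 in a two-sided exact permutation test, the smallest that 6188 assignments can give (adjusted p = 0.000485).

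**Figure D1:**
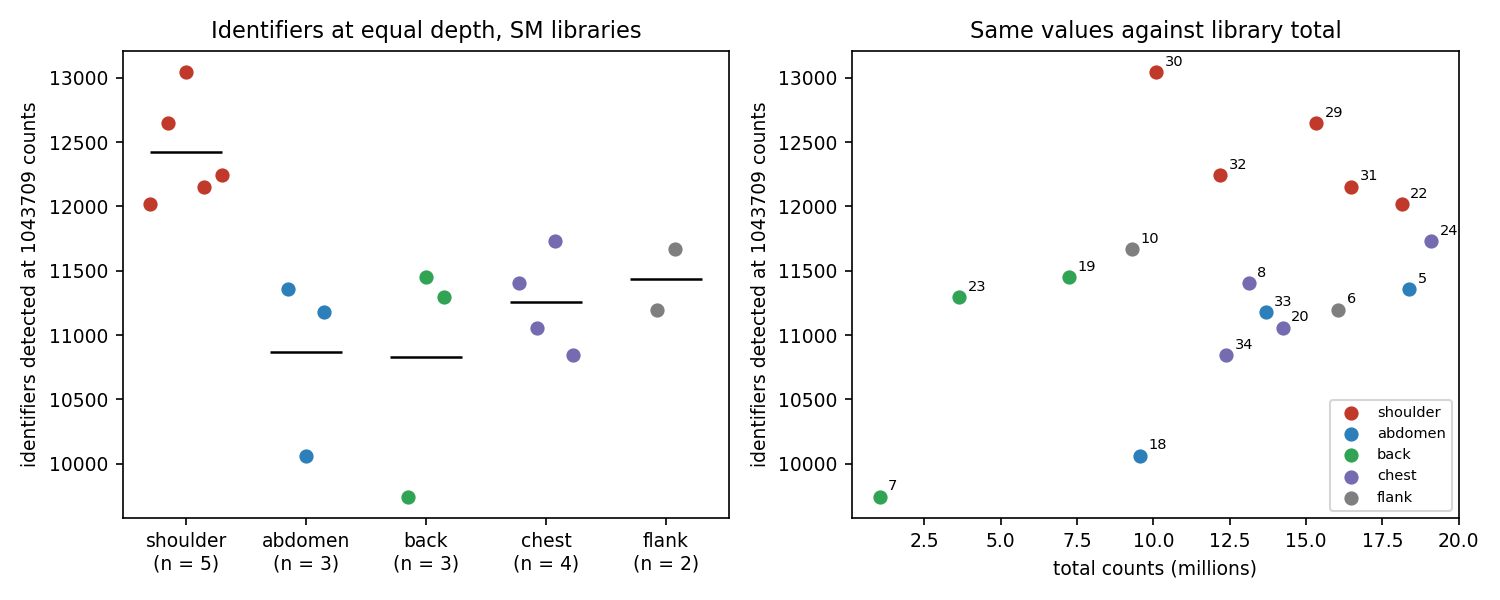
Left, identifiers detected at an equal depth of 1043709 counts in each SM library by tumor site, with the mean as a line; right, the same values against the total counts of the library, with case numbers. The 5 shoulder libraries lie between 12020 and 13045, above the highest trunk library at 11731, at totals that trunk libraries also reach.

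Identifiers were divided by their mean CPM in the T libraries of the same cats, so that no SM library set the classes. Of the 4260 identifiers at 1 to 10 CPM in T, 2621 ± 236 were seen in shoulder SM and 1989 ± 249 in trunk SM (SD). Of the 7479 at 10 to 100 CPM, 7111 ± 97.3 and 6649 ± 284 were seen. In these classes and in that at 0.1 to 1 CPM (540 ± 90.4 against 357 ± 62.2 of 2918), all 5 shoulder libraries lay above every trunk library. Of the 2887 under 0.1 CPM, 116 ± 31 and 76.4 ± 18.5 were seen, with 2 of the 5 shoulder libraries above every trunk library. Of the 2043 identifiers over 100 CPM, 2034 ± 1.95 and 2012 ± 16.4 were seen, likewise with 2 of the 5 above.

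Detection was also computed on the counts outside the muscle list alone, at 416481 such counts per library, an alternative chosen after the data were seen. There, shoulder SM showed 11996 ± 267 identifiers and trunk SM 10867 ± 613 (SD), with all 5 above all 12 (two-sided exact permutation test, p = 0.0013). Without cases 7 and 18 the difference at equal depth was 1104 identifiers. The T libraries of the same cats, at 5081459 counts, showed 14309 ± 332 identifiers in the 5 shoulder cases and 14074 ± 546 in the 12 trunk cases (SD), with no shoulder tumor above the highest trunk tumor (two-sided exact permutation test, p = 0.388). Cases 33 and 34, which follow the shoulder cases 29 to 32 in number but are trunk cases, showed 11180 and 10845 identifiers in SM. The labels do not say whether case number follows the order of processing, and a part of that order was not tested. The SM libraries of cats 11 to 13 all showed more identifiers than any of the 17, and at the same depth the shoulder library (case 13) showed 15986 and the flank libraries 15660 (case 11) and 13899 (case 12).

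Site held a small part of the overall variance. On log2 CPM of the 12444 identifiers that passed the low-count filter, 10.1% of the variance of the 17 libraries lay between shoulder and trunk, where all 6188 assignments of 5 libraries averaged 6.25% (one-sided exact permutation test, p = 0.0318). This p rose above 0.05 when any one of the 5 shoulder libraries, or trunk case 18 or 34, was left out, and it was 0.202 (share 8.04%) without case 30. It was 0.0350 (share 10.9%) without cases 7 and 18. Without TMM the share was 14.1% (p = 0.0058). Shoulder libraries resembled each other, with a median correlation of 0.897 across genes over 10 pairs (0.841 to 0.929). The 66 pairs of trunk libraries had a median of 0.839 (0.729 to 0.921) and the 60 pairs between the sites 0.864 (0.737 to 0.929). Without cases 7, 18, 19 and 23, also left out after the data were seen, the order of the last 2 medians turned, at 0.894 over 28 trunk pairs and 0.880 over 40 pairs between the sites.

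On the first principal component (23.3% of the variance) shoulder libraries scored 26.5 to 72.3 and trunk libraries -197 to 25.2, with case 7 at the low end. The gap between the groups, from case 24 (25.2) to case 22 (26.5), was small against the range of either. On PC2 (17.0%), 3 trunk libraries lay within the shoulder range, and on PC3 (9.87%) and PC4 (8.35%), where cases 18, 19 and 23 lay apart, 5 and 4 did.

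**Figure D2:**
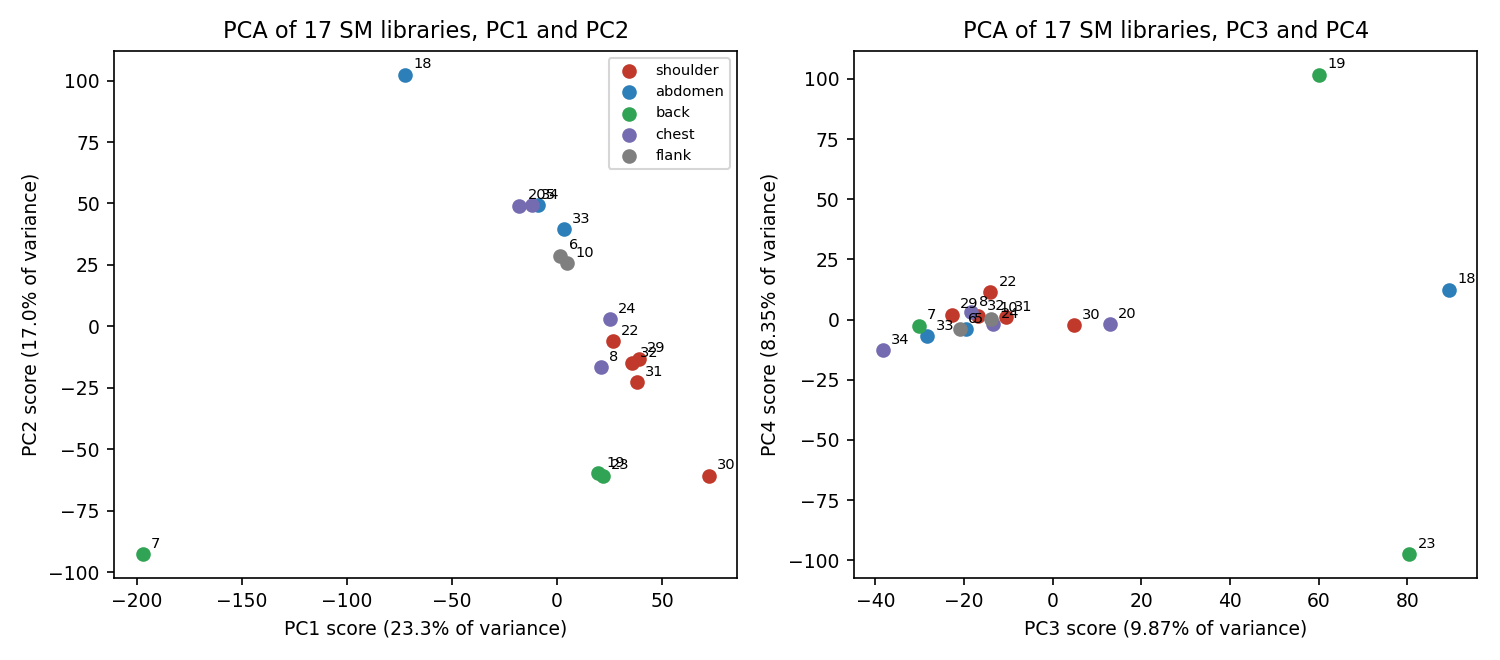
Principal component scores of the 17 SM libraries on log2 CPM, PC1 against PC2 (left) and PC3 against PC4 (right), colored by tumor site and labelled by case number. Shoulder libraries sit at 26.5 to 72.3 on PC1 beside trunk case 24 at 25.2, while cases 7, 18, 19 and 23 stand apart.

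No gene reached the limits of the comparison in the main test. With edgeR's quasi-likelihood test, 0 of 12444 identifiers (0%) were higher and 0 (0%) lower in shoulder SM at an adjusted p under 0.05 and a log2(FC) beyond 1, and 0 passed without the limit on log2(FC). The smallest adjusted p was 0.141. An unadjusted p under 0.05 was reached by 1273 identifiers (10.2%), 659 higher (5.3%) and 614 lower (4.93%) in shoulder. The split depended on the scale. On library totals without TMM, where the median log2(FC) of all identifiers was 0.38 in place of 0.05, 1886 were higher (15.2%) and 89 lower (0.715%). Without case 30, 316 were higher and 312 lower. All 5 shoulder libraries lay above all 12 trunk libraries for 9 identifiers (0.0723%) and below them for 14 (0.113%).

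Other tests on the same counts did call genes, and their counts differed widely. DESeq2 called 11 higher and 27 lower (0.233% and 0.573% of the 4711 identifiers it gave an adjusted p), and 80 (1.7%) without the limit on log2(FC). By edgeR, 37 of the 38 had an unadjusted p under 0.05, where 10.2% of all identifiers did. Groups did not overlap for 2 of the 38 (5.26%), beside 0.0723% and 0.113% of all identifiers in either direction. The edgeR likelihood ratio test called 22 higher (0.177%) and 7 lower (0.0563%). Limma voom with library quality weights, a test added after the data were seen, called 479 higher (3.85%) and 29 lower (0.233%). Of these 508, 280 had an unadjusted p under 0.05 by edgeR, where 10.2% of all identifiers did. Groups did not overlap for 9 of the 508, beside 0.0723% and 0.113% of all identifiers in either direction. The tests use the same counts, so their agreement is not independent. Limma voom without quality weights called 2 higher (0.0161%) and 1 lower (0.00804%). With 1 library left out in turn, the weighted test gave 121 higher (without shoulder case 31) to 678 higher (without trunk case 24). Its lower calls ranged from 10 (without trunk case 6) to 44 (without trunk case 24). With no limit on log2(FC) it gave 166 (without case 31) to 1139 (without case 24). Without the 3 back libraries, also an added choice, edgeR's quasi-likelihood test called 46 higher (0.374%) and 35 lower (0.284%), of which 40 were among the 508 of the weighted voom test. Without cases 7 and 18 it called none, and without case 23, 29 or 19 alone it called 3 higher, 2 higher and 1 lower.

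**Figure D3:**
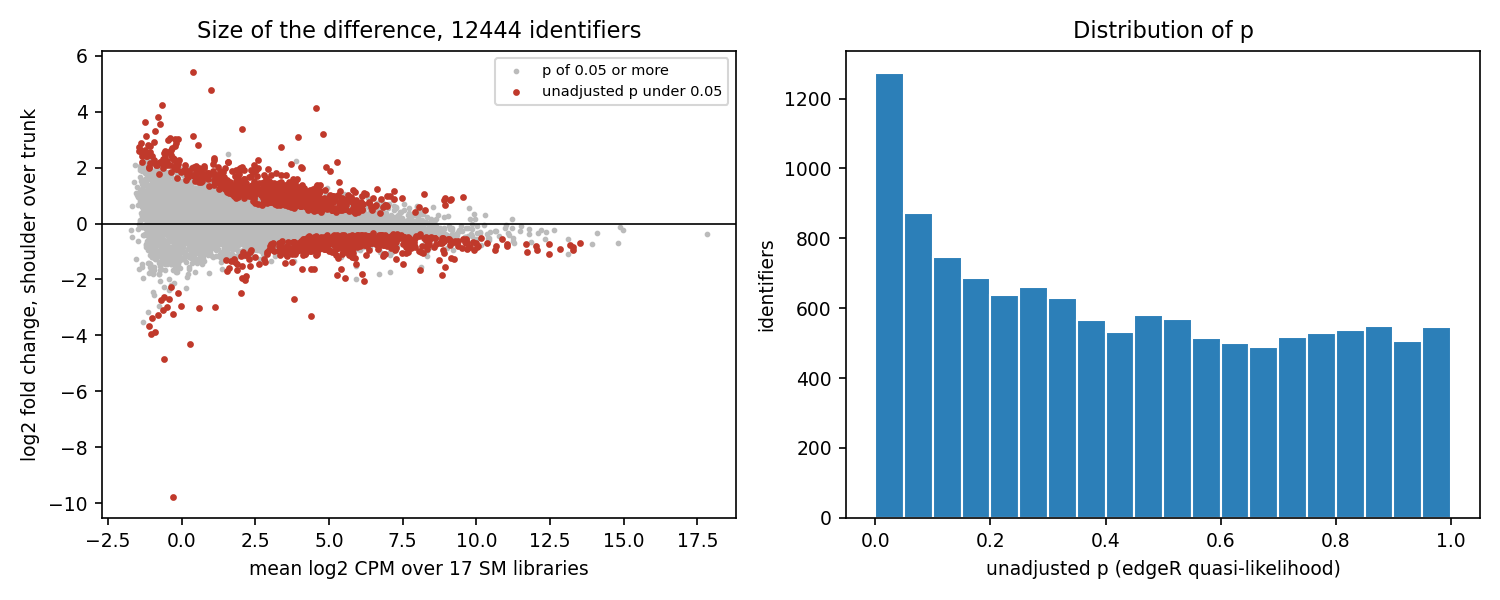
Left, log2(FC) of shoulder over trunk SM against mean log2 CPM for 12444 identifiers, with those at an unadjusted p under 0.05 in red; right, the number of identifiers by unadjusted p in steps of 0.05. At high abundance the red points lie mostly below 0, and the first step of p holds 1273 identifiers.

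The precision differed with abundance. Over all 12444 identifiers the median log2(FC) was 0.05 and the 95% confidence interval reached a median of 0.84 to either side of the estimate. For 4455 identifiers (35.8%) the interval lay wholly between -1 and 1, so a 2-fold difference between the sites was outside it. Among the 1000 most abundant identifiers this held for 668 (66.8%), with intervals reaching 0.47 to either side.

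Among the most abundant genes of muscle, most estimates on the TMM scale were lower in shoulder. The 100 most abundant identifiers had a median log2(FC) of -0.51, from -1.10 to 0.93, with 34 lower and 1 higher at an unadjusted p under 0.05. In the 1000 most abundant the median was -0.25, with 205 lower and 25 higher, while the remaining 11444 identifiers had a median of 0.08, with 409 lower and 634 higher. No identifier in any of these classes passed the adjusted limit.

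The muscle list, drawn on other cats, also had mostly negative estimates. The 100 most abundant identifiers took 42.1% to 70.3% of the counts of a library. Their overlap with the muscle list was not counted, so the list is no separate support. Of its 238 members, 225 had a negative log2(FC), and the median was -0.57, beside 0.05 for all genes tested. At an unadjusted p under 0.05, 85 members (35.7%) were lower and 1 higher. Of all identifiers 4.93% were lower, and of the 100 most abundant 34 were. None was called by edgeR's quasi-likelihood test on the 17 libraries. The likelihood ratio test called 3 members lower, weighted voom 9 and the quasi-likelihood test without back libraries 12, beside 0.0563%, 0.233% and 0.284% of all identifiers. DESeq2 called 12 lower and 0 higher. The 12 are 5.29% of the 227 members it gave an adjusted p, beside 0.573% of the 4711 identifiers it gave one. On the scale of totals without TMM, where the median of all identifiers was 0.38, the median of the list was -0.22 and 193 members were negative, with 30 lower (12.6%, beside 0.715% of all identifiers) and 4 higher at an unadjusted p under 0.05. The distance between list and all genes was -0.61 on either scale, as a change of scale moves all genes about alike. This distance was -0.41 without case 30. Without case 30 the median of the list was -0.40, with 38 members lower at an unadjusted p under 0.05 (2.48% of all identifiers were), and without cases 7 and 18 it was -0.61.

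As a share of counts, the muscle list took 60.6% in case 22, 55.3% in case 29, 36.3% in case 30, 53.9% in case 31 and 54.9% in case 32. The trunk libraries ranged from 47.4% (case 23, back) over a median of 61.3% to 68.1% (case 6, flank). All shoulder libraries other than case 30 lay inside the trunk range, so the groups overlapped.

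Lists for the other tissues were drawn in the same way. In cats 11 to 17, 29 identifiers were at least 3 (log2) higher in AT than in every other tissue, 82 in CT and 4 in T. The AT list summed to 328 to 3211 CPM in shoulder and 132 to 684 in trunk. Case 30 alone reached 3211, and the next shoulder library was case 31 at 415. The CT list summed to 37.9 to 98.1 CPM in shoulder and 22.2 to 83.0 in trunk. The median log2(FC) was 1.04 over the 22 tested members of the AT list (4 higher and 0 lower at an unadjusted p under 0.05, where 5.3% of all identifiers were higher). Without case 30, an alternative chosen after the data were seen, it was -0.27, with 1 higher. Over the 12 tested members of the CT list it was -0.01 (0 higher and 0 lower), beside 0.05 for all identifiers. The T list summed to 11.7 to 65.9 CPM in shoulder and 0.726 to 190 in trunk, and its 2 tested members had a median log2(FC) of -0.36. A further 15 identifiers were at least 3 lower in SM than in all 3 other tissues, and their sum was 830 to 1090 CPM in shoulder and 57.9 to 3449 in trunk, with a trunk median of 172 and 3 trunk libraries (cases 7, 8 and 19) above every shoulder library. Their median log2(FC) was 0.63, with none higher or lower at an unadjusted p under 0.05. These sums are CPM of the library total. Their part in the differences above was not tested. In such samples, fewer cells of a type and less RNA per cell cannot be told apart.

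**Figure D4:**
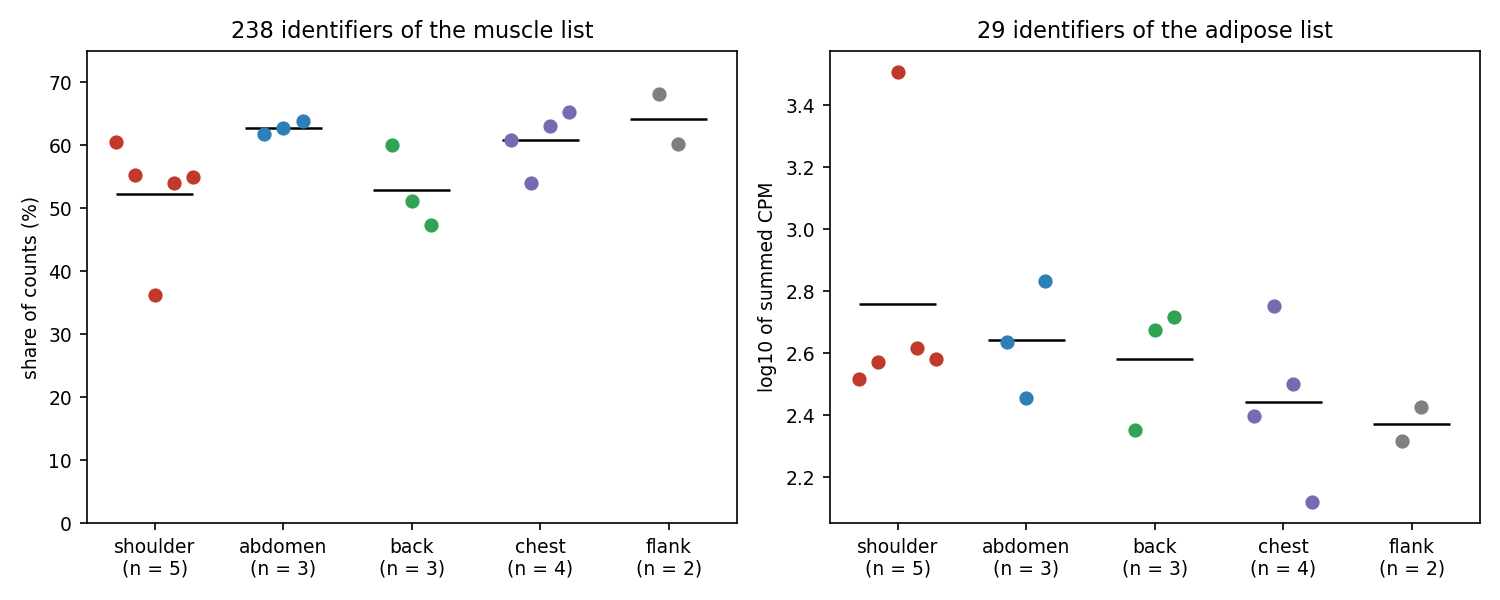
Left, share of counts (%) taken by the 238 identifiers of the muscle list in each SM library by site; right, log10 of the summed CPM of the 29 identifiers of the adipose list; lines are means. Shoulder case 30 stands apart at 36.3% and 3211 CPM, and the other shoulder libraries lie within the trunk range in both.

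ENSFCAG00000038881 had the smallest p of all identifiers (1.3e-05) and its estimate was lower in shoulder. Its levels were 139 CPM in case 22, 116 in case 29, 67.8 in case 30, 149 in case 31 and 167 in case 32. The trunk libraries ranged from 173 (case 19) over a median of 360 to 658 CPM (case 34). Every shoulder library was below every trunk library on this scale, while on a scale normalized over all 77 libraries case 32 (344 CPM) lay above trunk case 19 (337 CPM). The log2(FC) was -1.66 ± 0.30 (SE), 3.15-fold lower, and the adjusted p of 0.141 missed the limit. It is a member of the muscle list with the third lowest log2(FC) of the 238, and on that shared scale its median was 289 CPM in shoulder SM and 779 in trunk SM, against 1.19 and 2.05 in T from the same sites. DESeq2 gave an adjusted p of 7.7e-06. Levels on the back (347 ± 180), abdomen (414 ± 171), chest (405 ± 182) and flank (466 ± 116, 2 libraries) overlapped (SD).

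ENSFCAG00000044299, with a lower estimate in shoulder, had 8.31 CPM in case 22, 14.9 in case 29, 16.8 in case 30, 33.3 in case 31 and 30.2 in case 32. Trunk libraries ranged from 27.6 (case 6) over a median of 60.0 to 152 CPM (case 33). Cases 31 and 32 lay within the trunk range, level with cases 5 and 6, and the other 3 shoulder libraries lay below it. The log2(FC) was -1.95 ± 0.43 (SE), with an adjusted p of 0.165 in edgeR and 0.0011 in DESeq2. This was the lowest log2(FC) of the muscle list, and on the scale of all 77 libraries its median was 31.6 CPM in shoulder SM and 126 in trunk SM, against 0.519 in shoulder T and 7.77 in trunk AT.

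ENSFCAG00000041794 had a higher estimate in shoulder, with 106 CPM in case 22, 110 in case 29, 103 in case 30, 121 in case 31 and 127 in case 32. Trunk libraries ranged from 38.7 (case 10) over a median of 53.2 to 88.4 CPM (case 23). The groups did not overlap and the shoulder libraries lay close together (114 ± 10.3, SD). The log2(FC) was 0.97 ± 0.19 (SE), 1.96-fold, with an adjusted p of 0.141. DESeq2 gave an adjusted p of 0.0036 at a log2(FC) of 0.96. The size passed 1 at an adjusted p under 0.05 with weighted voom (1.11, p = 0.0022) and voom without weights (1.03, p = 0.0256). By edgeR's quasi-likelihood test it also did so without back libraries (1.10, p = 0.0225) and without case 23 (1.04, p = 0.0376). Case 23, a back library, held the highest trunk level, so leaving it out lowers the trunk mean. By the same test the size was 1.27 without TMM (adjusted p = 0.103). It was 0.87 without neutered cats (adjusted p = 0.7497), 0.92 in female cats only (adjusted p = 0.369) and 0.96 with sex as a term (adjusted p = 0.297). Among trunk sites the back had 75.1 ± 15.4 CPM (n = 3) and the chest 57.0 ± 11.6 (n = 4) (SD). The abdomen had 45.4 ± 5.36 (n = 3) and the flank 52.7 ± 19.8 (n = 2) (SD). This identifier is not muscle-restricted. On the scale of all 77 libraries its median was 234 CPM in shoulder SM and 108 in trunk SM, but 752 in shoulder CT and 616 in trunk AT, both above muscle.

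ENSFCAG00000003161, the second by p among those higher in shoulder, rested on 1 library. Case 22 had 255 CPM (4301 counts), while the other shoulder libraries had 1.86 (case 29), 8.40 (case 30), 1.92 (case 31) and 8.44 (case 32). Trunk libraries ranged from 0 over a median of 1.31 to 6.51 CPM, with no count in 4 of them. The log2(FC) of 4.77 ± 0.94 (SE, adjusted p = 0.141) fell to 1.38 without case 22, with an adjusted p of 0.665. Such single-library values were counted among identifiers selected for a high shoulder estimate, and no share over all identifiers was taken. Of the 357 identifiers with a log2(FC) over 1 and an unadjusted p under 0.05, 42 (11.8%) were at least 4 times higher in one shoulder library than in the next, 25 of them in case 30 and 17 in case 22.

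**Figure D5:**
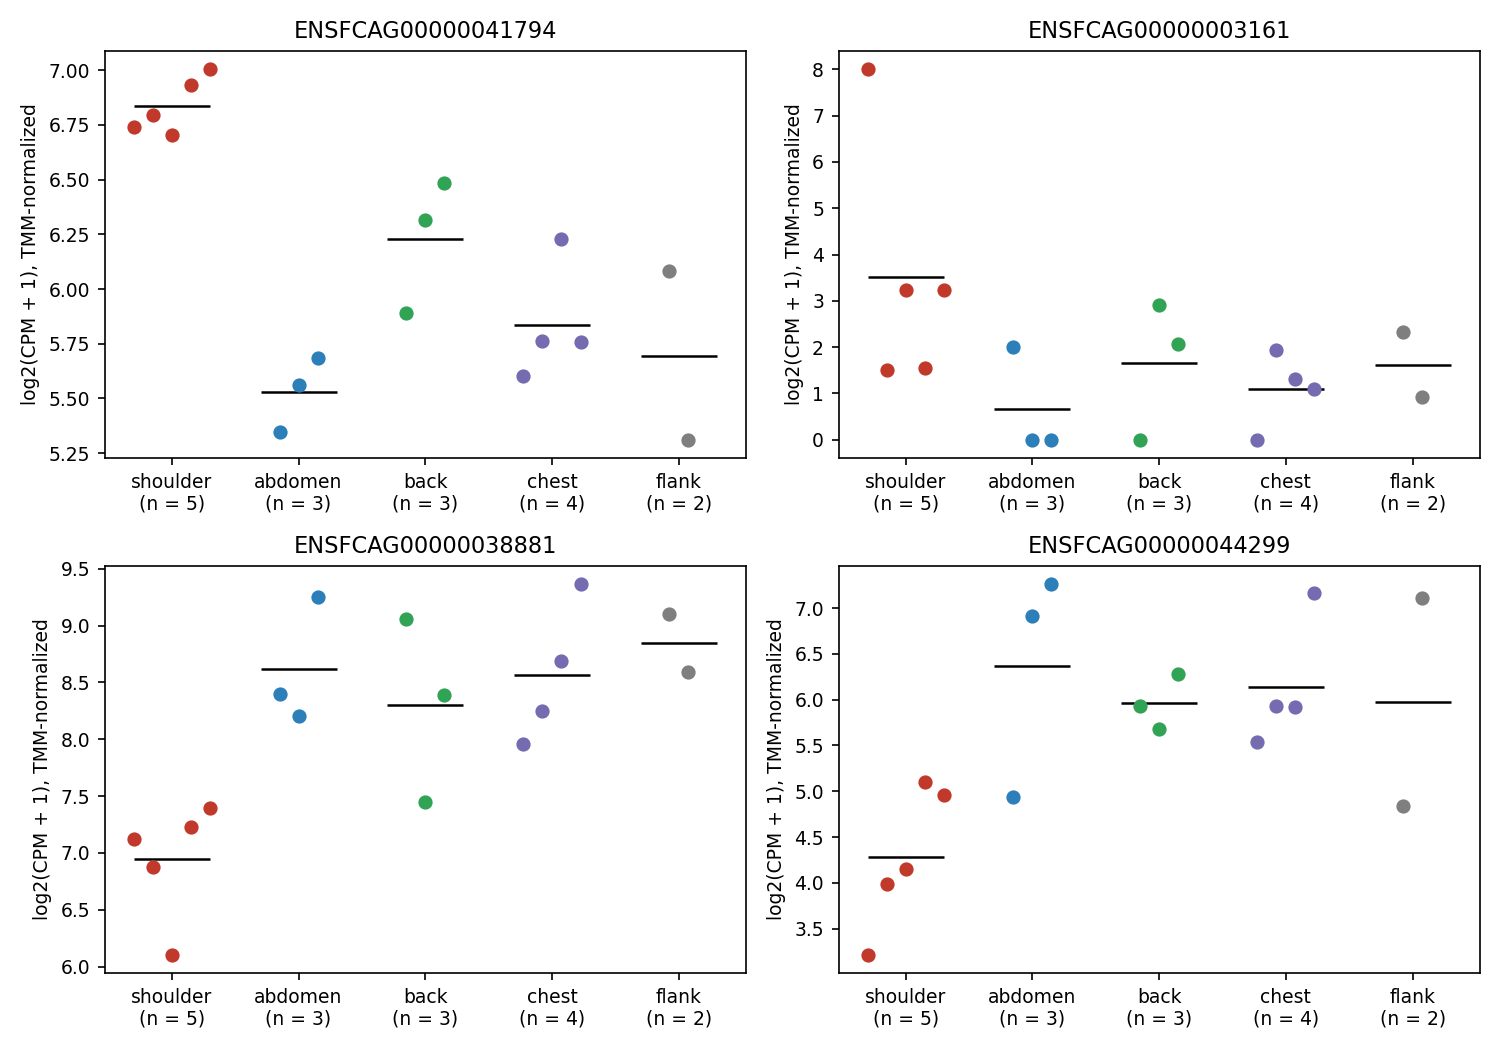
Levels of 4 identifiers, as log2 of TMM-normalized CPM plus 1, in each SM library by tumor site, with the mean as a line. On the scale of these 17 libraries, shoulder lies apart from all trunk sites for ENSFCAG00000041794 and ENSFCAG00000038881 (for the latter not on the scale of all 77, 344 against 337 CPM), overlaps for ENSFCAG00000044299, and is set by case 22 at 255 CPM for ENSFCAG00000003161.

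Taken one trunk site at a time, in one edgeR fit with 5 sites over 13877 identifiers, shoulder differed from the abdomen by 0 higher (0%) and 1 lower (0.00721%) identifier, and from back, chest and flank by none (0% each). At an unadjusted p under 0.05 there were 2352 identifiers against the abdomen (3 libraries), 1505 against the back (3), 1265 against the chest (4) and 971 against the flank (2). These contrasts share the shoulder libraries, and the numbers of libraries differ. In a fit of its own the abdomen gave 26 higher and 7 lower, for which no share of the identifiers tested was taken. With 1 library left out, the abdomen gave 0 to 28 higher and 0 to 12 lower (28 and 12 without case 20), and the back 0 to 28 higher and 0 to 1 lower (28 and 1 without case 23). The single call against the abdomen was lost without any one of cases 5, 6, 10, 18, 19, 23, 24, 29, 30, 32 and 33.

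Whether the same genes differed by site outside muscle was examined in the T libraries of the same 17 cats. With edgeR's quasi-likelihood test, 0 of 13847 identifiers (0%) were called higher and 0 (0%) lower in shoulder tumors, and 936 (6.76%) had an unadjusted p under 0.05. DESeq2 called 7 higher and 17 lower, for which no share of the identifiers tested was taken. Of 11992 identifiers tested in both tissues, 118 had an unadjusted p under 0.05 in each. Of the 118, 102 had the same direction. They are 9.66% of the 1221 in SM, where 842 of all 11992 reached this p in T. They are also 118 of the 842 in T, where 1221 of all 11992 reached it in SM. Whether this overlap exceeds chance was not tested. Among the SM identifiers at an unadjusted p under 0.05, T had the same sign for 65.8% of those higher (424 of 644) and 71.1% of those lower (410 of 577), beside 57.0% and 58.6% for all identifiers with a positive or negative log2(FC) in SM. SM and T of a case are from one cat, so these are not independent animals.

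The difference between sites was then compared between the tissues directly, with the cat as a block. No identifier of 14556 (0%) had a site difference in SM that differed from that in T at an adjusted p under 0.05 by edgeR's quasi-likelihood fit. Without adjustment, 782 (5.37%) fell under 0.05. The difference was higher in SM for 603 of them and lower for 179, where the median over all identifiers was 0.23. For ENSFCAG00000038881 the log2(FC) in T was -0.73 ± 0.99 (SE) at levels near 0, and for ENSFCAG00000041794 it was -0.47 ± 0.65 (SE).

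The SM libraries of cats 11 to 17 gave a further look without any library of the comparison. They were 1 shoulder library (case 13) and 2 flank libraries (cases 11 and 12), whose own values are given without a test. ENSFCAG00000041794 had 110 CPM in case 13, against 53.8 and 47.7 in cases 11 and 12. ENSFCAG00000038881 had 461 CPM in case 13 and 175 and 369 in cases 11 and 12, with case 13 the highest. ENSFCAG00000044299 had 130 CPM against 161 and 210. A fit of all 20 SM libraries, with these cats as a term, also holds the 17 libraries of the comparison. In it the log2(FC) was 0.97 for ENSFCAG00000041794 (edgeR's quasi-likelihood test, adjusted p = 0.0750). It was -1.24 for ENSFCAG00000038881 (adjusted p = 0.422) and -1.72 for ENSFCAG00000044299 (adjusted p = 0.279). Of the 659 identifiers higher in shoulder at an unadjusted p under 0.05, 64.8% had the same sign in these cats, beside 55.2% of all with a positive log2(FC). Of the 614 lower, 31.1% had the same sign, beside 42.0% of all with a negative one.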

How the data were processed

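RNA was sequenced from LCM-isolated FFPE tissue as single reads with a stranded low-input total RNA kit. The deposited values are raw counts, one whole number for each Ensembl identifier and library. The paper names Trimmomatic and Kallisto with Felis_catus_9.0, while the submitters' processing notes name STAR and featureCounts, so the counting step is uncertain. All 19587 identifiers of the files were used. The reference table (39307 genes) matched 0 of them, and the gene lists drawn up for pathways and markers were not run. The 17 libraries were different cats, and no pair was identical.

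Tests were run with R 4.3.3 and edgeR 4.0.16 (quasi-likelihood test, TMM, filterByExpr by group, Benjamini-Hochberg adjustment), limma 3.58.1 and DESeq2 1.42.0. Genes were called at an adjusted p under 0.05 and a log2(FC) beyond 1. PCA and variance used log2 CPM with a prior count of 2. Detection at equal depth is the expected number of identifiers in a draw of that many counts. Permutation tests were exact over all 6188 assignments and treat libraries as exchangeable. The fits were tested on simulated data, and no result of that test is given here.

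Members, lists and tests were chosen with earlier results of these data known. As no gene was called, the rule gave the 2 identifiers with the smallest p in each direction among those with a mean of at least 50 counts in the higher group. SM and T share cats, so the cat was a block in that comparison. As a check, each library's deviation from the mean of its tissue over the 17 cats was correlated between SM and T. Site differences remain in these deviations. The median was 0.0593 within the 17 cats and -0.00517 between cats. Of the 17 pairs, 5 were over 0.1, and 6 SM libraries had their highest correlation with the T library of their own cat. Alternatives were DESeq2, the likelihood ratio test, limma voom, other filters and scaling, terms for sex, age and total counts, and libraries left out.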

Additional observations from a re-analysis of the deposited data

Results flagged for a closer look

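Among the 5 shoulder SM libraries, 11 measures were examined for a library far from the others, and 4 were found. Chance alone marks about 1 in 20 independent groups, but these measures are not independent. The 3 values of case 30 come from 1 library, and ENSFCAG00000003161 was named for a small p that rests on case 22. Case 30 had a PC1 score of 72.3 (next 38.9), a muscle list sum of 362798 CPM (next 539450) and an adipose list sum of 3211 CPM (next 415). Case 22 had 255 CPM of ENSFCAG00000003161 (next 8.44). No cause was tested for these values.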

How the results depend on the processing

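Of 486 values under alternative settings, among those that answer a comparison 285 kept their side of the threshold or size, 53 moved and 7 became weaker. Among the single identifiers and the muscle list 122 kept it, 18 became stronger and 1 moved. A count of 0 genes cannot reverse, so the absence of reversals says nothing for those. Genes called higher and lower between shoulder and trunk SM (0 and 0, and 0 without a limit on log2(FC)) were 11, 27 and 80 with DESeq2, 22, 7 and 31 with the likelihood ratio test, 479, 29 and 875 with weighted limma voom, 2, 1 and 3 with limma voom without quality weights, and 46, 35 and 104 without back libraries. With at least 10 counts in 50% of a group, or in European short hair cats only, 1 gene was higher, which was also the number without a fold limit. The cause of these differences was not tested. With 1 library left out the ranges were 0 to 3 higher, 0 to 1 lower and 0 to 3 without a fold limit. Counts stayed at 0 without TMM, without a low-count filter, with sex, age, log2 total or identifiers at equal depth as a term, with all 20 SM libraries, without neutered cats, in female cats only and without cases 7 and 18. Identifiers at equal depth set all 5 shoulder libraries above all 12 trunk libraries, so that term overlaps with site and its 0 shows nothing.

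The share of variance was 8.04% to 11.8% with 1 library left out, and 14.1% without TMM. Against single trunk sites, a separate fit for the abdomen gave 26 higher and 7 lower (no share taken), against 0 and 1. Leaving out 1 library gave 0 to 28 higher and 0 to 12 lower for the abdomen (28 and 12 without case 20), 0 to 28 and 0 to 1 for the back (28 and 1 without case 23), and 0 to 1 lower for the flank (1 without case 20). In T, DESeq2 gave 7 higher and 17 lower (no share taken). With the cat as a replicate block 0 genes differed between SM and T in their site difference, and with no replicate block 0 did, so the pairing changed no call. Detection at equal depth differed by 1184 to 1440 identifiers with 1 library left out.

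Depth limits low genes most in case 7. Site is confounded in part with sex, neutering and breed, with 5 shoulder cats. The site was that of the tumor, and the muscle itself is not named. P-values measure the spread between these cats.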
